A study of Mus musculus with 6 samples.

Results

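The regions described here are open chromatin regions of the mouse liver that were accessible in type 1 innate lymphoid cells (ILC1s) and far less so in natural killer (NK) cells. They were chosen by their own measured values. A region was selected when its lowest value in the 3 ILC1 libraries was at least 3 CPM, that is counts scaled to 1000000 fragments of its library, and at least 8 times its highest value in the 3 NK cell libraries. Of 107945 regions, 284 met this rule (0.263%), and these 284 are called members below. Because the contrast of the cell types chose them, their difference between the cell types is given as a description and is not tested.

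ILC1s and NK cells are the group 1 innate lymphoid cells, lymphocytes without rearranged antigen receptors that produce interferon-gamma and express the transcription factor T-bet. NK cells circulate through the blood and kill infected or transformed cells, whereas liver ILC1s stay in the tissue and share many surface receptors with activated NK cells, which makes the populations hard to separate. ATAC-seq reads out accessibility with the transposase Tn5, which inserts adapters preferentially where DNA is free of nucleosomes, so more fragments come from a region the more accessible it is. Regions that are open in one lymphocyte type and closed in a related one are commonly enhancers, distal elements that bind transcription factors and act on genes nearby.

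Both groups came from the livers of adult male C57Bl/6J mice without genetic modification or treatment, with 3 libraries of ILC1s and 3 of NK cells. Both were sorted as viable cells negative for CD3 and F4/80 and positive for NK1.1, with ILC1s taken as CD49a positive and NK cells as CD49a negative. The methods print both gates as CD49b negative and list an antibody to CD49b and none to CD49a, so the printed gate of the NK cells does not separate them by the usual presence of CD49b. Regions carry running numbers as names, and their positions and genes were not used here, so the identity of the cells was not checked against marker loci and no sequence is shown. The labels do not say whether the libraries of a group came from different animals, and p-values therefore measure the spread between libraries. In a bulk library, a smaller share of cells with an open region and a weaker opening in every cell cannot be told apart.

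The ILC1 libraries held 6916979, 6103178 and 5687282 fragments in regions and the NK cell libraries 12302602, 11279588 and 8526923. Column names give the cell type and a suffix that does not match the numbers of the samples, so the libraries are called deepest, middle and shallowest within their cell type, and values are listed in that order. Every NK cell library was deeper than every ILC1 library, so cell type and any batch that went with depth cannot be told apart. At these depths the minimum of 3 CPM corresponds to 21, 19 and 18 fragments in the ILC1 libraries. A count of 0 in an NK cell library allows up to 3 fragments, or 0.244, 0.266 and 0.352 CPM. Such limits and all intervals below cover counting error only.

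The members were mostly regions of modest accessibility. Their mean CPM in ILC1s ranged from 3.33 to 99.9, with a median of 8.33 and quartiles of 5.60 and 15.2. The median over all 32080 regions with at least 3 CPM in every ILC1 library was 16.1. A mean of at least 10 CPM was reached by 115 members, at least 20 CPM by 44 and at least 50 CPM by 4. Mean CPM in NK cells ranged from 0.0271 to 9.90 with a median of 0.442.

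Among regions with at least 3 CPM in every ILC1 library, the share that met the rule was smaller among the strongest of them. Members made up 1.45% of the 5782 regions whose lowest ILC1 value lay between 3 and 5 CPM and 1.46% of the 6971 between 5 and 10 CPM. They made up 0.925% of the 6161 regions between 10 and 20 CPM, 0.461% of the 8022 between 20 and 50 CPM and 0.0778% of the 5144 at 50 CPM or more. All but 4 of the strongest open regions of liver ILC1s, those at 50 CPM or more in every ILC1 library, thus failed the ratio of 8. With the cell types exchanged, the share in NK cells was 3.47% of the regions between 3 and 5 CPM. It was 3.76% between 5 and 10 CPM and 3.47% between 10 and 20 CPM. Only above that was it lower, at 1.89% between 20 and 50 CPM and 0.506% at 50 CPM or more. The strongest regions thus had the smallest share in both cell types.

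The strongest member, peak_29979, had 99.0, 107 and 94.1 CPM in the ILC1 libraries and 10.8, 10.6 and 8.33 CPM in the NK cell libraries. The second, peak_48626, had 82.3, 102 and 85.3 CPM in ILC1s and 8.62, 7.54 and 7.15 CPM in NK cells. Both were open far above the median member in ILC1s and were also above most other members in NK cells, where they kept a measurable signal in every library. Then came peak_6365 with 60.9, 54.6 and 55.6 CPM in ILC1s and 4.06, 4.17 and 3.17 CPM in NK cells. The fourth, peak_26631, had 60.6, 50.8 and 50.3 CPM in ILC1s and 6.10, 6.12 and 4.93 CPM in NK cells. These were the 4 members at or above 50 CPM, and in each of them the 3 libraries of a cell type lay close together against the gap between the cell types.

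The other 6 of the 10 strongest members had nearly the same ILC1 mean, from 40.9 to 45.5 CPM, but differed in how much signal was left in NK cells. The highest residual among these 6 was that of peak_43094, with 42.4, 41.9 and 41.0 CPM in ILC1s and 4.31, 4.26 and 4.93 CPM in NK cells. The lowest was that of peak_84494, with 42.5, 43.1 and 37.1 CPM in ILC1s and 0.732, 0.887 and 0.821 CPM in NK cells. Its lowest ILC1 value was 41.8 times its highest NK cell value, against 8.32 times for peak_43094. Between them were peak_52368, peak_13278, peak_61103 and peak_515, with NK cell means of 2.83, 2.43, 3.11 and 3.61 CPM. Together the 10 strongest members held 15.7% of the summed ILC1 CPM of all members.

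**Figure D1:**
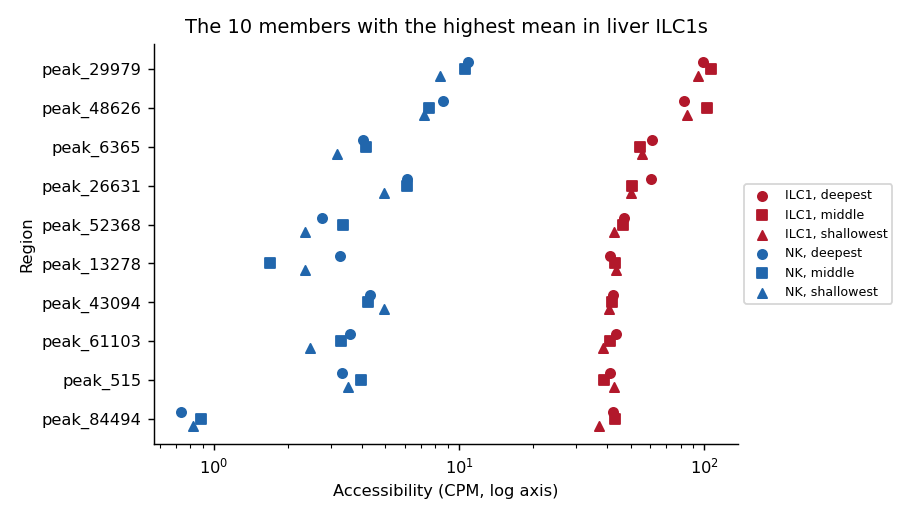
Accessibility of the 10 members with the highest mean in liver ILC1s, in CPM on a log axis, with one point per library (red, ILC1; blue, NK cell; symbols give the depth rank of the library within its cell type). The ILC1 points lie between 37.1 and 107 CPM and the NK cell points between 0.732 and 10.8 CPM, with peak_84494 lowest in NK cells.

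No member was at 0 in all NK cell libraries, so a group of members without any NK cell fragment could not be shown. A count of 0 in at least 1 NK cell library occurred in 36 members, in 30 of them in 1 library and in 6 of them in 2. In 56 members every NK cell library had 3 fragments or fewer, which is the level that a count of 0 allows. No order of NK cell levels is read among these.

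One member with few NK cell fragments, chosen after its values were seen, was peak_48621, with 20.1, 27.5 and 29.5 CPM in ILC1s and 0.0813, 0 and 0.117 CPM in NK cells. It rested on 475 ILC1 fragments and 2 NK cell fragments, a pooled ratio of 408 with a 95% exact interval from 112 to 3376. The width of the interval shows how little the NK cell fragments fix such a ratio. The ratio of the lowest ILC1 to the highest NK cell value was above 32 in 14 members and above 16 in 66, with a median of 10.8 over all members. High ratios of members with 3 NK cell fragments or fewer per library are not ranked against each other or against peak_84494, whose ratio rested on 26 NK cell fragments.

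Many members lay near the limits of the rule. The ratio was under 9 in 58 of the 284, while 87 further regions with at least 3 CPM had a ratio between 7 and 8. Just inside the ratio were peak_83527, peak_95614 and peak_91580, the first with 3.90, 3.28 and 3.34 CPM in ILC1s and 0.406, 0.177 and 0 CPM in NK cells. Just outside it were peak_4664, peak_94033 and peak_81532, the first with 14.9, 12.9 and 13.9 CPM in ILC1s and 1.63, 0.798 and 0.821 CPM in NK cells. At the minimum of 3 CPM, peak_51262, peak_79076 and peak_18954 lay just inside and peak_4760, peak_38512 and peak_44948 just outside. Each of these regions lay within a small distance of its limit, whatever its own level.

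**Figure D2:**
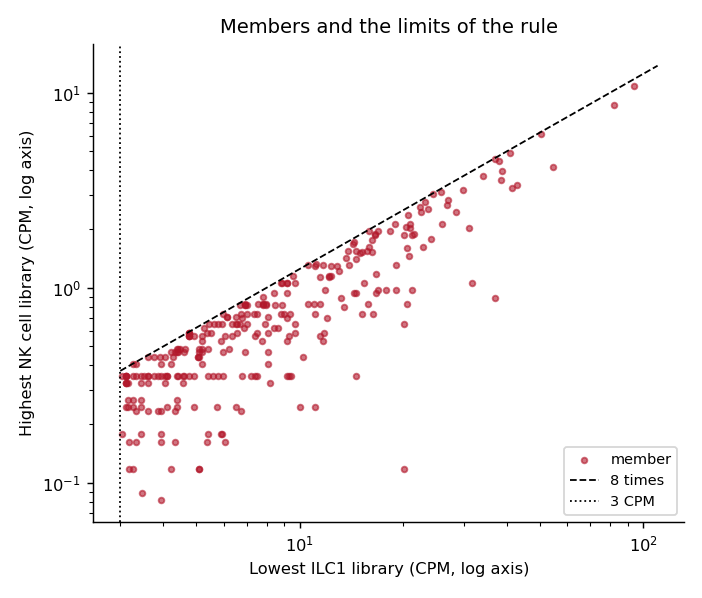
Each of the 284 members by its lowest CPM in the ILC1 libraries (horizontal) and its highest CPM in the NK cell libraries (vertical), both on log axes, with the limits of the rule as lines at 3 CPM and at the ratio of 8. Many points crowd under the dashed line, and peak_48621 and peak_84494 stand far below it, at 20.1 and 0.117 CPM and at 37.1 and 0.887 CPM.

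All 284 members were also called more accessible in ILC1s by the quasi-likelihood test of edgeR (Benjamini-Hochberg adjusted p under 0.05 and fold change over 1.5), which called 15.9% of the 106376 regions tested. Since the rule used the same contrast, nothing is read from this count. The members were 1.68% of all regions called in that direction. Their median log2 fold change was 4.03, from 3.12 to 8.31, beside 0.02 over all regions tested. The standard error of a member's log2 fold change, estimated with DESeq2, had a median of 0.51.

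Summed over members, 0.352%, 0.358% and 0.348% of the fragments of the ILC1 libraries fell in them, and 0.0237%, 0.0207% and 0.0202% of the fragments of the NK cell libraries. The 284 regions thus held a small part of either library. The NK cell sums were 6.71%, 5.88% and 5.74% of the mean ILC1 sum. No marker of the purity of the sort could be read from the regions, and its part in these sums was not tested.

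With the cell types exchanged, the same rule selected 911 regions nearly exclusive to NK cells, 2.72% of the 33473 regions with at least 3 CPM in every NK cell library, against 0.885% for the members in ILC1s. Deeper NK cell libraries enter this count, and after all libraries were thinned at random to 5687282 fragments the numbers were 265 and 866. The regions came from peaks called before thinning, so depth could still enter the thinned numbers. Without the middle ILC1 library, described below, and without thinning, the rule selected 592 and 1047 regions, so the gap between the sets turned in part on this library. The residual of the NK cell set in ILC1s was 4.66%, 4.12% and 4.63% of its mean NK cell sum. In that set 18 regions had no fragment in any ILC1 library, whereas no member was without NK cell fragments, at an NK cell depth above that of ILC1s.

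Since every ILC1 library had to pass, the rule also kept out regions with 1 low ILC1 library, and the spread between the ILC1 libraries below is that of regions chosen in this way. The highest ILC1 value was a median of 1.27 times the lowest, under 1.5 times in 230 members and over 2 times in 9. The coefficient of variation over the 3 ILC1 libraries had a median of 12.1%, where counting alone gives 13.9% at the members' levels. The values of other regions with at least 3 CPM in every ILC1 library, which did not meet the ratio, are given beside those of the members by range of mean ILC1 CPM. Between 3 and 5 CPM the median was 13.4% in members and 15.5% in the others, between 5 and 10 CPM 14.6% and 15.8%, and between 10 and 20 CPM 11.4% and 11.3%. At 20 CPM or more it was 8.96% in the 44 members, where counting alone gives 7.82%, and 6.08% in the 14000 others, which held more fragments and where counting alone gives 6.16%. The ratio of the rule also acts on the lowest ILC1 library, so nothing about evenness is read from these values. The deepest, middle and shallowest library was the highest in 94, 102 and 88 members.

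Among the 63 members with at least 100 fragments per ILC1 library on average, peak_94019 varied most, with 18.1, 25.4 and 16.5 CPM and a coefficient of variation of 23.7%. The next, peak_41222 with 23.4, 33.6 and 22.3 CPM and peak_2995 with 21.97, 30.6 and 20.04 CPM, had the same shape. All 3 were highest in the middle library. The most even members were peak_56377, peak_43094 and peak_85319, the first with 16.3, 16.2 and 16.5 CPM and a coefficient of variation of 0.948%.

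Whether the set holds in a library that the rule did not see was examined by applying the rule to the other 5 libraries. Without the deepest ILC1 library, 333 regions were chosen, and 85.3% of them met the rule in it. Without the shallowest, 320 were chosen and 88.8% met it. The middle ILC1 library stood apart, since 592 regions were chosen without it and 48.0% met the rule in it. Of the 421, 336 and 337 regions chosen without the deepest, middle and shallowest NK cell library, 67.5%, 84.5% and 84.3% met it. The share was lowest in the middle ILC1 library and next lowest in the deepest NK cell library.

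The middle ILC1 library alone kept 308 regions out of the set, more than the 284 members themselves. Their median CPM was 4.77 in the deepest, 1.97 in the middle and 5.10 in the shallowest ILC1 library, and 0.244, 0.177 and 0.235 in the NK cell libraries. The lower median of the middle library follows from the choice of regions that failed in it alone. In 249 of them the middle library was under 3 CPM, and in 53 it was under 0.25 times both other ILC1 values, which occurred in 0 of the regions left out for either other ILC1 library. In 305 of the 308 it was still above every NK cell library, and in the other 3 it was not. Its lowest value among them was 0.164 CPM. Examples chosen after their values were seen are peak_96042, with 25.01, 10.98 and 23.7 CPM in ILC1s and 1.38, 2.13 and 2.23 CPM in NK cells, and the region peak_38512 named above, with 7.66, 2.95 and 10.4 CPM in ILC1s.

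Over all regions the median CPM of the middle ILC1 library was 0.983, against 1.16 and 1.23 in the other ILC1 libraries. Its part in the shortfall of the 308 regions was not tested. The number of members therefore turns on this library, and 592 regions met the rule in the other 5. The deepest NK cell library alone kept out 137 regions, with medians of 1.30, 0.621 and 0.586 CPM in the NK cell libraries. Its higher median there likewise follows from the choice of these regions.

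**Figure D3:**
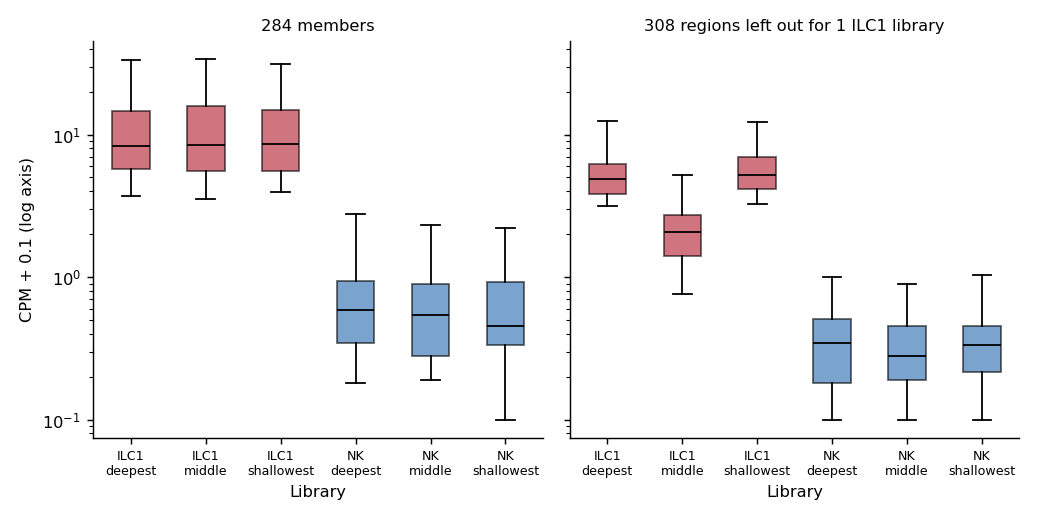
CPM plus 0.1 on a log axis in each library for the 284 members (left) and for the 308 regions that met the rule in all libraries but the middle ILC1 library (right). Boxes show quartiles and median, whiskers the 5th and 95th percentiles. The ILC1 medians of the members, which had to pass in every library, are 8.24, 8.36 and 8.53 CPM before the 0.1 is added. On the right they are 4.77, 1.97 and 5.10 CPM. The low middle library there follows from the choice of these regions.

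The rule made no use of the running number. No source states that the numbers follow the genome, but the log2 fold changes of consecutively numbered regions correlated across regions (Pearson's r = 0.27), and those of regions 20 numbers apart hardly did (r = 0.03). Regions are not independent replicates, and these values only describe the numbering. Of the 284 members, 80 (28.2%) had a number next to that of another member. Of the non-members, 0.425% were next to a member, and of the 31796 non-members with at least 3 CPM in every ILC1 library 0.667% were. Adjacent members had a median ILC1 mean of 10.3 CPM and the 204 others one of 7.82 CPM. In the set nearly exclusive to NK cells, 22.7% were adjacent.

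Members formed 237 stretches of consecutive numbers, of which 25 held 2 members and 8 held 3 or more. The longest ran from peak_48625 to peak_48630. Its 6 members summed to 168, 204 and 183 CPM in ILC1s and 12.8, 10.3 and 10.1 CPM in NK cells, with peak_48626 the strongest. Also in this group were peak_48621 and peak_48622, so 8 of the 10 regions numbered from peak_48621 to peak_48630 were members.

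Around this group, 18 consecutive regions from peak_48620 to peak_48637 were called more accessible in ILC1s, and 10 of them were no members. No unbroken block of called regions in the whole table was longer. The 10 non-members were weak, with ILC1 means from 0.487 to 3.84 CPM and NK cell means from 0.0271 to 0.383 CPM, and the weakest rested on 9 ILC1 fragments. A few numbers before this block, peak_48614 had 53.9, 54.7 and 53.8 CPM in ILC1s and 47.0, 43.7 and 44.7 CPM in NK cells. The neighbourhood thus held regions open to a similar level in both cell types next to regions open nearly only in ILC1s.

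Another 3 runs held 4 members each. The run from peak_13278 to peak_13281 summed to 64.9, 70.3 and 64.5 CPM in ILC1s and 3.98, 2.22 and 3.40 CPM in NK cells. The next number, peak_13282, was no member, with 18.4, 17.7 and 17.9 CPM in ILC1s and 2.28, 1.06 and 1.29 CPM in NK cells. The run from peak_95501 to peak_95504 summed to 52.9, 57.8 and 47.3 CPM in ILC1s and 3.33, 3.72 and 4.22 CPM in NK cells. It lay among further members at peak_95498, peak_95508, peak_95511 and peak_95512, while peak_95493, with 107, 123 and 111 CPM in ILC1s and 102, 98.6 and 85.4 CPM in NK cells, was open in both. The run from peak_77830 to peak_77833 was weaker, with 24.6, 24.6 and 25.8 CPM in ILC1s and 1.87, 0.887 and 0.938 CPM in NK cells.

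The strongest member, peak_29979, opened another block of 18 called regions, up to peak_29996. Besides it, the members of the block were peak_29982, peak_29983, peak_29988 and peak_29990, and the ILC1 means of the 13 non-members ran from 0.799 to 62.1 CPM. In all, 131 members (46.1%) lay in blocks of 5 or more consecutive called regions, beside 11.9% of all regions called higher in ILC1s. A member counts towards its own block, so this share partly follows from the rule.

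**Figure D4:**
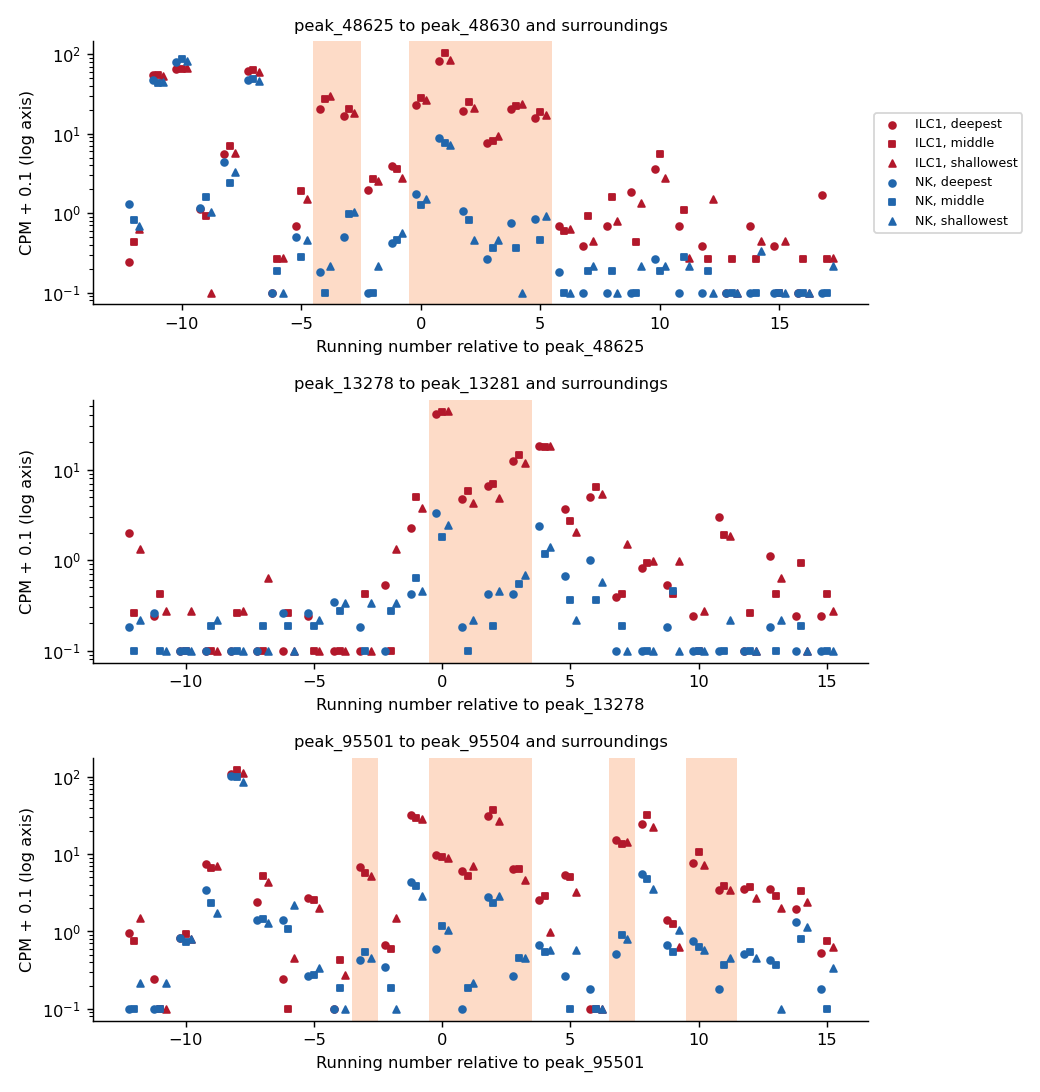
CPM plus 0.1 on a log axis of the regions around the 3 longest runs of members, by running number relative to the first member of the run (red, ILC1; blue, NK cell; symbols give the depth rank of the library; shaded, members). The members lie in unbroken runs with further members nearby in the top and bottom panels, and those panels also hold regions open in both cell types, such as peak_95493 at 8 numbers before peak_95501.

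The regions close to a member in number that did not meet the rule are described by their calls, and their shares were not compared with a test. Of the 2081 tested non-members within 5 numbers of a member, 43.8% were called higher in ILC1s, against 15.9% of all regions tested, and 4.998% were called higher in NK cells, against 15.6%. Their median CPM was 2.02, 1.80 and 2.11 in the ILC1 libraries and 0.813, 0.798 and 0.821 in the NK cell libraries. The median of their log2 fold changes was 1.02. These values come from the same libraries as the choice of members.

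Many of these neighbours held few fragments, and 133 had none in one of the cell types. Among the 1192 neighbours with at least 50 fragments over the 6 libraries, a limit chosen after the data were seen, 54.4% were called higher in ILC1s, against 19.6% of all regions with as many. Called higher in NK cells were 6.54% of these neighbours, against 23.2% of all such regions. Their median log2 fold change was 0.80, against -0.10 over the 58199 regions with as many fragments.

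The shift faded with distance. Directly beside a member 59.9% of non-members were called higher in ILC1s and the median log2 fold change was 1.58. It was 0.80 at 5 numbers, 0.47 at 10, 0.13 at 20 and -0.07 at 50 numbers, where 12.9% were called. The other regions called higher in ILC1s form a much larger set, and their neighbours were counted with that set kept in and only the members left out. Directly beside these regions 30.6% were called and the median was 0.49. The neighbours of the set nearly exclusive to NK cells shifted the other way, with a median of -1.16 directly beside it. The profiles were built differently in this respect, and the difference between them was not tested.

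**Figure D5:**
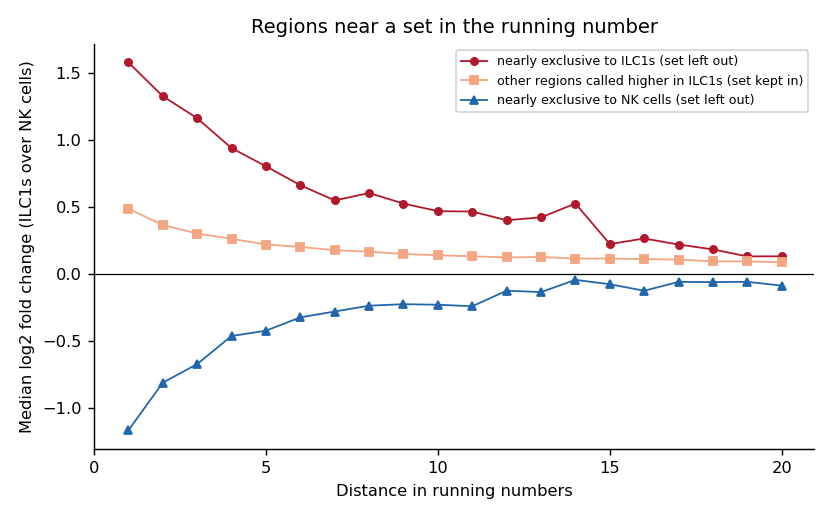
Median log2 fold change (ILC1s over NK cells) of the regions near a set, by their distance in running numbers on either side. Regions of the set itself are left out for the members and for the set nearly exclusive to NK cells, and kept in for the other regions called higher in ILC1s, where the members are left out. The profile of the members starts at 1.58 and that of the other regions called higher in ILC1s at 0.49, the profile of the set nearly exclusive to NK cells starts at -1.16, and at 20 numbers the profiles lie at 0.13, 0.09 and -0.09.

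Most members, but not all, lay in such surroundings. The mean log2 fold change of non-members within 5 numbers was above 0 for 265 of 284 members (93.3%), against 55.6% of the 31796 non-members with at least 3 CPM in every ILC1 library. No neighbour called higher in ILC1s was found for 9 members (3.17%), against 27.2% of those non-members. For 82 members (28.9%) at least 1 neighbour was called higher in NK cells, against 68.3% of those non-members. These shares were not compared with a test. It was highest around peak_48626 (4.06), peak_48630 (3.95) and peak_48628 (3.81), all from the run described above. It was lowest around peak_56377 (-1.59), peak_4461 (-1.52) and peak_103375 (-1.15).

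The member peak_56377 had 16.3, 16.2 and 16.5 CPM in ILC1s and 0.569, 1.51 and 1.76 CPM in NK cells, while 6 of its 10 neighbours were called higher in NK cells and 0 in ILC1s by edgeR (1 at an unadjusted p under 0.05, and 0 by DESeq2). Around peak_4461, with 6.79, 3.44 and 7.56 CPM in ILC1s and 0.0813, 0.177 and 0.117 CPM in NK cells, 6 of 10 neighbours were called higher in NK cells and 1 in ILC1s. Around peak_103375, with 26.5, 24.1 and 28.3 CPM in ILC1s and 0.813, 1.77 and 1.29 CPM in NK cells, 5 of 9 were called higher in NK cells and 1 in ILC1s. These 3 members were lower in NK cells than in ILC1s, while most of their tested neighbours were called higher in NK cells.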

How the data were processed

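Reads were trimmed by the authors (Trimmomatic) and aligned to GRCm38, given as mm10 in the submitters' processing notes (Bowtie2). Mitochondrial, poorly aligned and duplicate fragments were taken out, as were those in blacklisted regions. Peaks came from MACS on the fragments of each sample by itself, overlapping peaks were joined, and featureCounts gave the fragments in each joined region. The deposited values are raw counts without normalization, and libraries were not pooled. A shift of fragment ends for Tn5 insertion is not given in the sources used here.

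Columns were assigned to a cell type by name, and none was left out. CPM are counts divided by the column total over all regions. The rule was applied to CPM, and the reverse rule to NK cells. Differences were tested over all 106376 regions with at least 1 fragment with edgeR 4.0.16 in R 4.3.3 (TMM, glmQLFit without the legacy option, glmQLFTest, cell type as the only term, Benjamini-Hochberg adjustment), after a check on simulated counts. DESeq2 1.42.0 gave standard errors and an alternative. Python 3.11.15 was used for the rest.

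The members and lists were chosen with earlier results of these data known. Regions named are the 10 members with the highest ILC1 mean, the 3 on each side of each limit, the 3 most and least variable with at least 100 fragments per ILC1 library on average, the longest runs, and the 3 with the highest and lowest neighbourhoods. The longest runs were to be 3, and another of equal length is given. Members with 0 NK cell fragments were to be named, and there were none. Others are stated as chosen after their values were seen or as neighbours of these. Alternatives were other scalings, limits, filters and tools, thinning, and leaving out each library. Annotation, motif and marker analyses need positions and were not run.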

Additional observations from a re-analysis of the deposited data

How the results depend on the processing

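The number of members followed the limits of the rule, with 570 regions at a minimum of 1 CPM, 98 at 10 CPM, 1068 at a ratio of 4, 66 at a ratio of 16 and 1004 when group means replaced the lowest and highest library. It was 263 with TMM factors, 277 with size factors and 265 after thinning, and 215 regions were in both the thinned and the original set (75.7% of the members and 81.1% of the thinned set). Leaving out each library gave 320 to 592 regions, the highest without the middle ILC1 library. The call of the members in ILC1s was fixed by the rule and says nothing about stability. A minimum of 10 fragments in every library left 41 of the 284 to be tested. The share of members next to another was 37.7% up to 2 numbers apart, 43.3% up to 5, 20.4% after thinning and 21.3% to 28.0% with a library left out. The members' median log2 fold change was 4.10 with totals alone, 3.48 with a prior count of 2 and 3.998 to 4.12 with a library left out. The share of ILC1 fragments in members was 0.387% to 0.501% with a library left out, since more regions were then chosen. The median log2 fold change of neighbours was 1.08 with totals alone, 1.07 with DESeq2, 0.80 for neighbours with at least 50 fragments and 0.99 to 1.05 with a library left out. The neighbours' alternatives, the replicate block, the thinned adjacency and the legacy option of edgeR were chosen after the data were seen. The columns of both cell types carry the same suffixes, and nothing says that a suffix marks a shared animal or day. Deviations of libraries with the same suffix from their group means correlated at -0.08 to -0.13, and those with different suffixes at 0.004 to 0.11. The deviations of 3 libraries from their own mean are bound to each other. These values therefore cannot decide whether a suffix marks a pair, and the main fit used the cell type only. With the suffix as a replicate block, the members' median log2 fold change was 4.04, that of the neighbours was 1.03, and 15266 and 15248 regions of the whole table were called higher in ILC1s and in NK cells, against 16918 and 16576. Depth limits the NK cell level of the 56 members with at most 3 fragments per library.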

Other observations

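The members were spread over the whole running number. When the table was divided into 10 parts of 10794 or 10795 consecutive regions, each held between 18 and 41 members, with the fewest in the first part and the most in the fifth. As a share of the regions with at least 3 CPM in every ILC1 library, this was 0.602% in the first part and 1.23% in the fifth and in the ninth. The parts were not compared with a test.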
